A study of Mus musculus with 23 samples.

Results

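Platelets and red cells carry RNA made by their precursors in the bone marrow, and the cells of the vessel wall do not make most of it. Transcripts of these 2 blood cell types in RNA from an aorta are therefore read as a sign of blood left in or on the tissue. The genes described here are 7 genes of platelets, namely Tubb1, Ppbp, Pf4, Itga2b, Gp1ba, Gp9 and Treml1, and 2 genes of red cell precursors, Alas2 and Slc4a1. They were chosen by name, and each but Gp1ba was represented by the brightest probe set that carries its symbol alone. Except for Gp1ba, all were found among 30176 genes with such a probe set. Gp1ba was paired with its probe set through a supplementary table of the study. Each gene had 1 probe set.

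The samples were aortas of male ApoE-/- mice on the C57BL/6J strain, which were 8 weeks old at the start and were all fed high-fat feed. ApoE-deficient mice lack apolipoprotein E, a carrier protein that clears lipoprotein remnants from the blood, and develop atherosclerosis on such a diet. The groups were CIH 8W (chronic intermittent hypoxia for 8 weeks, n = 5), Nor 8W (normoxia for 8 weeks, n = 5), CIH 12W (chronic intermittent hypoxia for 12 weeks, n = 4), CIH 8W + Nor 4W (hypoxia for 8 weeks and then normoxia for 4 weeks, n = 4) and Nor 12W (normoxia for 12 weeks, n = 5), which gave 23 Clariom D arrays. The labels call the arrays of a group biological replicates, and each was taken as 1 animal. In whole tissue, fewer cells of a type and less RNA per cell cannot be told apart. The methods describe perfusion with phosphate-buffered saline for the lesion analysis, and they do not state it for the aortas used for RNA.

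Platelets are shed by megakaryocytes and seal injured vessels. The receptor complex of glycoproteins Ib, IX and V (Gp1ba and Gp9 are parts of it) holds them to von Willebrand factor, and the integrin of Itga2b and Itgb3 binds fibrinogen. Platelet granules release chemokines on activation, among them the products of Ppbp and Pf4, which lie beside each other in the genome. Red cells lose their nucleus before they enter the blood, and the youngest of them, the reticulocytes, still hold RNA for haemoglobin and its haem group.

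The platelet genes lie on 5 chromosomes of the GRCm38.p6 build. Tubb1, the beta-tubulin of the platelet's microtubule coil, is at chr2:174450595-174458380. Ppbp, which encodes pro-platelet basic protein, is at chr5:90768518-90770063, and Pf4, which encodes platelet factor 4, follows it at chr5:90772435-90773383. Itga2b, the alpha chain of the fibrinogen receptor, is at chr11:102453297-102469883. Gp1ba is at chr11:70639102-70643986 and Gp9 at chr6:87776131-87779786. These are the spans of the RefSeq genes. Treml1, a receptor stored in platelet granules, is at chr17:48359916-48367176. Of the red cell genes, Alas2, the erythroid enzyme of the first step of haem synthesis, is at chrX:150547417-150570622. Slc4a1, the anion exchanger band 3 of the red cell membrane, is at chr11:102348820-102365281.

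The promoters are shown for 4 members that were high on the same arrays and for Pf4, whose pattern was different. Each sequence is the 150 bases before the start of the RefSeq transcript on GRCm38.p6, 5′ to 3′ on the gene's own strand, and capitals mark GATAA or its reverse complement TTATC, the core letters bound by GATA factors. The transcript used for Gp9 starts inside the span of the gene given above, so its sequence lies within that span.
Ppbp, plus strand of chr5:90768368-90768517: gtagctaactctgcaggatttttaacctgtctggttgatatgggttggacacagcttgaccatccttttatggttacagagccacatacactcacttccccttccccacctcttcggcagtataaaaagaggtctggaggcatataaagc
Tubb1, plus strand of chr2:174450445-174450594: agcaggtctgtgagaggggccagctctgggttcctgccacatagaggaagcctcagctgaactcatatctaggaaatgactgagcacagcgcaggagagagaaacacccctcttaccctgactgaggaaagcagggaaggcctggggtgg
Gp9, plus strand of chr6:87777920-87778069: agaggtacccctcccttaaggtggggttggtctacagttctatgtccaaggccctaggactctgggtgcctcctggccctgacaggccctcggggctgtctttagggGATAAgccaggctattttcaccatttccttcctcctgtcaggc
Alas2, plus strand of chrX:150547267-150547416: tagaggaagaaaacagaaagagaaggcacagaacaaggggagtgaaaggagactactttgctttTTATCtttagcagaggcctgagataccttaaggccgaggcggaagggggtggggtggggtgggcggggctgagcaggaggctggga
Pf4, plus strand of chr5:90772285-90772434: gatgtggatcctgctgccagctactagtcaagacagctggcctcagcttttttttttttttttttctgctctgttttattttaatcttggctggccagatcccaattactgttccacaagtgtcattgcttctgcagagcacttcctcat

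Of the 9 genes, 8 had a RefSeq promoter to search, and 250 bases before the start were searched on both strands. GATAA was found in 3 of the 8, in Gp1ba, Gp9 and Alas2, against 22.6% of 32851 promoters. The match of Gp9 began at position -43 from the transcript start and that of Alas2 at position -86. CACCC, the core letters of the CACC box, was found in 4 of the 8 against 52.0% of all promoters. GGAAG, which holds the core of ETS factor sites, was found in 8 of 8 against 64.1%. A match gives only the letters in this window.

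Of the 23 arrays 4 stood apart for these genes, namely arrays 3 and 4 of CIH 8W and arrays 3 and 5 of Nor 12W, and the results below that rest on them are also given without them. The 9 genes fell into 3 kinds by their level. The signal is the deposited log2 value of a probe set, and it was taken to be above background where it exceeded the 95th percentile of the background probes of its array, which lay between 4.64 and 5.50. Pf4 and Alas2 were above it on 23 of 23 arrays and Ppbp on 17. Tubb1 and Gp9 were above it on 3 arrays each, the same 3, and Slc4a1 on 1. Itga2b, Gp1ba and Treml1 were above background on 0 of 23 arrays, so their values are those of background and no fold change is given for them. The aortas thus showed a clear signal of only part of the platelet genes, although Itga2b, Gp1ba and Treml1 are among the genes that define platelets.

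**Figure D1:**
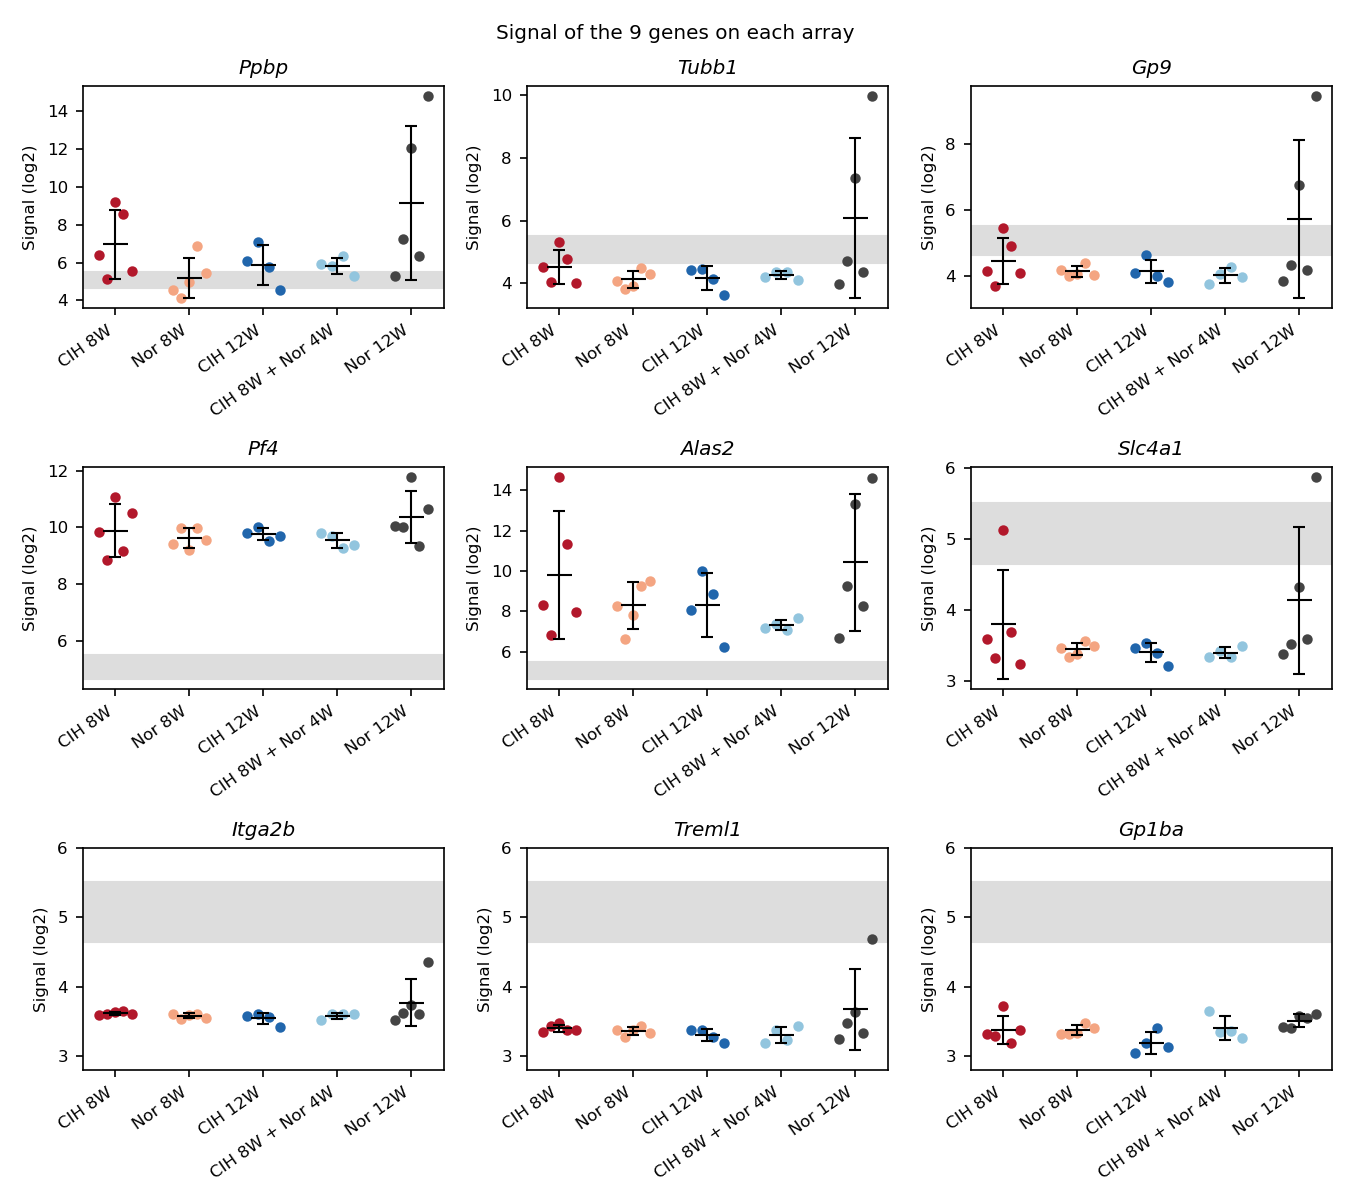
Signal (log2) of each of the 9 genes on the 23 arrays, by group. Points are arrays, lines and bars are the group mean and SD, and the grey band spans the background limits of the arrays, 4.64 to 5.50. In Ppbp, Tubb1 and Gp9 the 2 highest points belong to Nor 12W, and in Alas2 the highest point belongs to CIH 8W.

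The signals of the platelet genes differed more between single arrays than between conditions. Ppbp had 6.38, 5.13, 9.21, 8.59 and 5.58 on the 5 arrays of CIH 8W, against 4.55, 4.12, 4.97, 6.87 and 5.43 in Nor 8W. It had 6.10, 7.09, 5.74 and 4.55 in CIH 12W, with 5.93, 5.80, 6.32 and 5.28 found in CIH 8W + Nor 4W, against 5.29, 7.25, 12.06, 6.34 and 14.80 in Nor 12W. Arrays 3 and 5 of Nor 12W stood far above all others, arrays 3 and 4 of CIH 8W came next, and the groups overlapped in every comparison. Above the median of the other 19 arrays (5.74), Ppbp was 9.06 higher on the log2 scale on array 5 of Nor 12W, 6.32 on array 3 of Nor 12W, 3.47 on array 3 of CIH 8W and 2.85 on array 4 of CIH 8W.

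Tubb1 and Gp9 were high on fewer arrays. Tubb1 was above background with 5.32 on array 3 of CIH 8W and with 7.35 and 9.98 on arrays 3 and 5 of Nor 12W. The other 20 arrays lay between 3.64 and 4.76. Gp9 had 5.44 on array 3 of CIH 8W and 6.76 and 9.44 on arrays 3 and 5 of Nor 12W, and the other 20 arrays had 3.67 to 4.89. In both genes the 4 highest arrays were the 4 that led for Ppbp, in the same order.

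The 3 dim platelet genes stayed near one value. Itga2b lay between 3.42 and 4.36, Treml1 between 3.19 and 4.69 and Gp1ba between 3.04 and 3.72. The highest value of Itga2b and of Treml1 was again on array 5 of Nor 12W and the second on array 3 of Nor 12W, although neither passed the background limit there. The highest value of Gp1ba was on array 3 of CIH 8W.

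Pf4 behaved otherwise. It had 9.81, 8.84, 11.08, 9.16 and 10.52 in CIH 8W, against 9.39, 9.97, 9.19, 9.96 and 9.54 in Nor 8W. It had 9.80, 10.003, 9.53 and 9.70 in CIH 12W, with 9.80, 9.70, 9.26 and 9.38 found in CIH 8W + Nor 4W, against 10.03, 9.997, 11.77, 9.34 and 10.63 in Nor 12W. Its range over the arrays was 2.93, against 10.68 for Ppbp, its neighbour. Array 4 of CIH 8W, the fourth highest for Ppbp, was the second lowest for Pf4. Besides megakaryocytes, resident macrophages of mouse tissues transcribe Pf4.

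Alas2 varied over a range of 8.40. It had 8.29, 6.84, 14.65, 11.33 and 7.97 in CIH 8W, against 8.27, 6.63, 7.82, 9.25 and 9.51 in Nor 8W. It had 8.08, 10.01, 8.85 and 6.25 in CIH 12W, with 7.15, 7.37, 7.08 and 7.68 found in CIH 8W + Nor 4W, against 6.66, 9.27, 13.33, 8.27 and 14.62 in Nor 12W. The same 4 arrays were the highest as for Ppbp, here with array 3 of CIH 8W level with array 5 of Nor 12W, and the 4 arrays of CIH 8W + Nor 4W lay closest together (SD 0.27). Slc4a1 had 5.13 on array 3 of CIH 8W and 4.32 and 5.87 on arrays 3 and 5 of Nor 12W, of which 5.87 alone was above background, and 3.21 to 3.69 on the other 20 arrays.

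The haemoglobin genes were measured by 4 probe sets that each carry several globin symbols, 2 of alpha-globin and 2 of beta-globin. Their mean was above background on every array. It ran from 13.16 to 16.34 in CIH 8W, against 12.85 to 15.32 in Nor 8W. It ran from 12.25 to 15.64 in CIH 12W, and the range was 13.15 to 14.10 in CIH 8W + Nor 4W, against 12.87 to 16.18 in Nor 12W. The 4 arrays with the highest Alas2 also had the 4 highest globin means, between 15.94 and 16.34, and array 4 of CIH 12W had the lowest of both. Globin RNA was thus present in all 23 aortas, including those in which Tubb1 and Gp9 were at background.

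**Figure D2:**
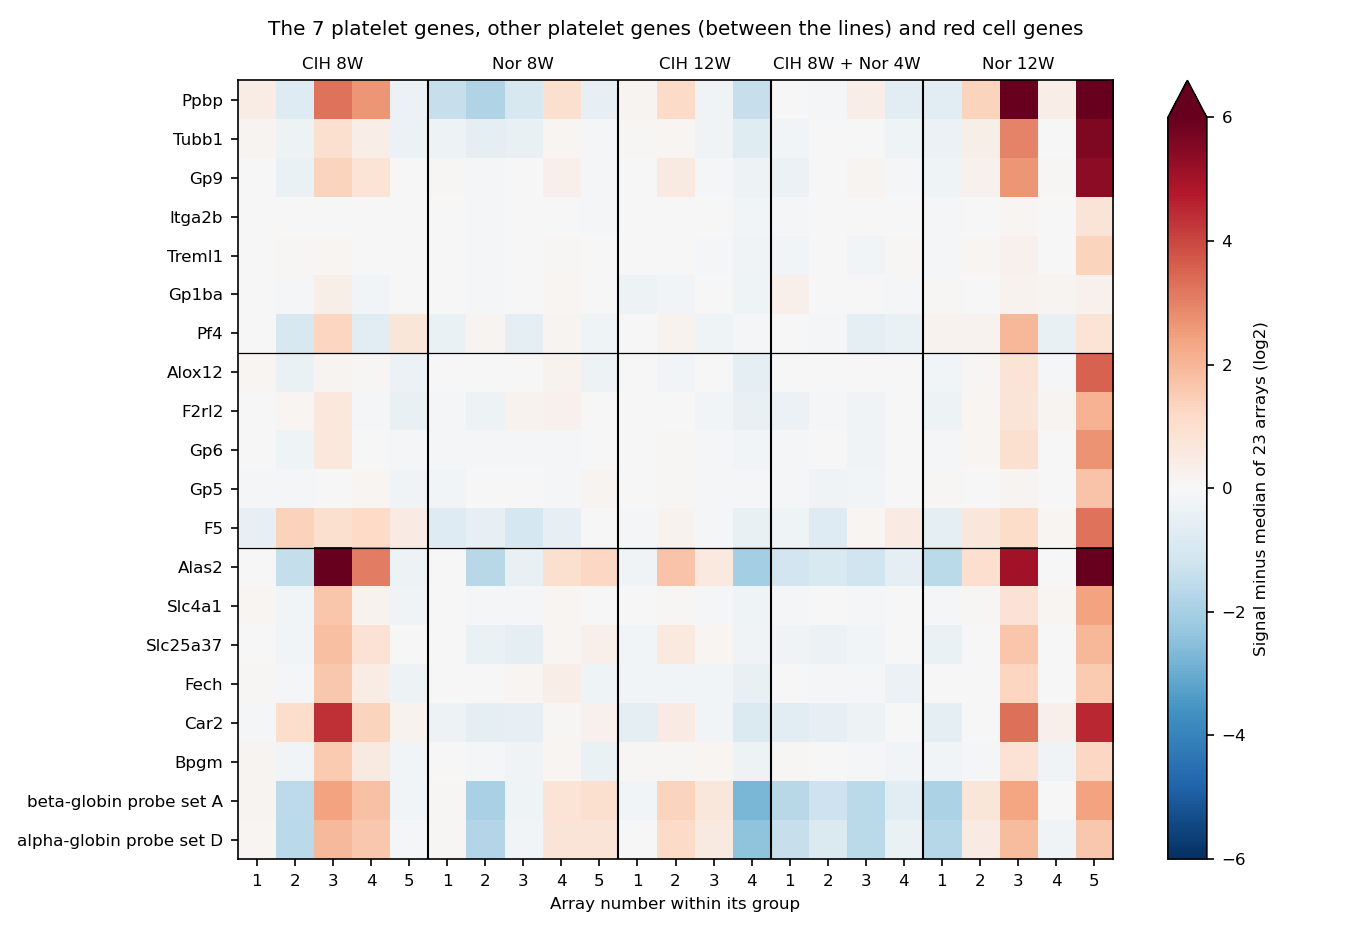
Signal of each gene on each array minus its median over the 23 arrays (log2, colours end at 6), with arrays in columns by group. The rows are the 7 platelet genes described here, 5 further platelet genes, and Alas2 and Slc4a1 with other red cell genes and 2 globin probe sets. The darkest columns are arrays 3 and 5 of Nor 12W and array 3 of CIH 8W.

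The within-group SD sets these genes beside all others. It was 2.35 for Alas2, 2.22 for Ppbp, 1.25 for Tubb1 and 1.19 for Gp9, against a median of 0.15 over the 65956 gene-level probe sets. An SD as large was reached by 0.0925%, 0.165%, 0.599% and 0.666% of all probe sets. For Pf4 the SD was 0.65 and the share 2.07%, and for Slc4a1 they were 0.61 and 2.35%. Gp1ba (SD 0.15), Itga2b (0.16) and Treml1 (0.29) were within the common range.

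The platelet and the red cell signals did not keep one ratio. Array 3 of CIH 8W and array 5 of Nor 12W had almost the same Alas2 signal, with a difference of 0.03 on the log2 scale (CIH 8W array minus Nor 12W array), and the globin mean differed by 0.21. Slc4a1, the other red cell gene, differed by -0.74 and was above background only on the Nor 12W array. Between the same arrays Ppbp differed by -5.60, Tubb1 by -4.66 and Gp9 by -4.004. Pf4 differed by 0.45 in the other direction. With 1 array each, this difference has no replicate check. Over the 4 bright arrays the globin mean ran only from 15.94 to 16.34, where Alas2 ran from 11.33 to 14.65. A small difference in the globin mean therefore cannot show an equal red cell content.

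**Figure D3:**
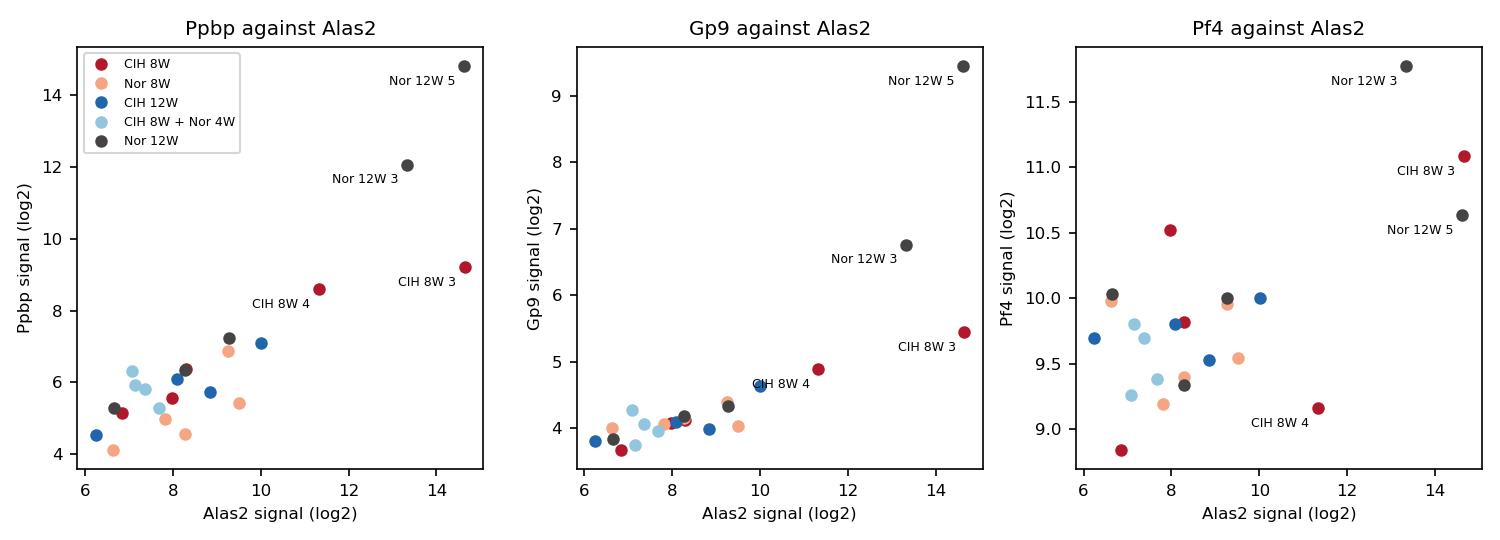
Signal (log2) of Ppbp, Gp9 and Pf4 on the vertical axes against Alas2 on the horizontal axis, 1 point per array, coloured by group. The arrays CIH 8W 3 and Nor 12W 5 share an Alas2 signal near 14.6 and lie far apart in Ppbp (9.21 and 14.80) and Gp9 (5.44 and 9.44).

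Correlations between the genes over the 23 arrays were high, and they were known when the genes were chosen, so they describe these arrays only. Over the 36 pairs Pearson's r ran from 0.35 to 0.99, and p-values are from 100000 permutations, of which 1e-05 is the smallest they can give. For Tubb1 and Gp9, r was 0.99 (p = 1e-05, adjusted over the pairs 3e-05) and Spearman's rho 0.82 (p = 1e-05, adjusted 4.5e-05). For Ppbp and Tubb1, r was 0.96 (permutation p = 1e-05, adjusted 3e-05) and rho 0.95 (p = 1e-05, adjusted 4.5e-05). For Alas2 and Ppbp, r was 0.89 (permutation p = 1e-05, adjusted 3e-05) and rho 0.79 (p = 1e-05, adjusted 4.5e-05). The arrays with the highest signals were the same in each of these genes.

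Since 4 arrays stood apart, r was also taken over the other 19 arrays. Tubb1, Gp9 and Slc4a1 were above background on 0 of these 19 arrays, as were Itga2b, Gp1ba and Treml1. So r is given first for the other 3 genes, of which Ppbp was above background on 13. It was 0.64 for Ppbp and Alas2 and 0.19 for Pf4 and Alas2. With the 2 most extreme arrays of Ppbp removed, r of Ppbp and Alas2 was 0.85. Tubb1, Gp9 and Slc4a1 were still correlated over the 19 arrays, although their values there lie under the background limit. With each other, Ppbp and Alas2 their r ran from 0.59 (Ppbp and Slc4a1) to 0.90 (Tubb1 and Ppbp). With Pf4 it ran from -0.03 (Slc4a1) to 0.28 (Gp9). Within the groups, taken as deviations from the group means, r was 0.99 for Tubb1 and Gp9, 0.95 for Tubb1 and Ppbp and 0.91 for Ppbp and Alas2. These values within the groups include the 4 arrays.

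Pf4 was the member least tied to the others that are above background. With Ppbp its r was 0.64 (permutation p = 0.00399, adjusted 0.00613) and rho 0.43 (p = 0.0406, adjusted 0.0609). Without arrays 3 and 5 of Nor 12W r was 0.38, and over the 19 arrays it was 0.25, so the relation rests on those arrays. Ppbp and Pf4 are adjacent genes with the same direction of transcription.

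**Figure D4:**
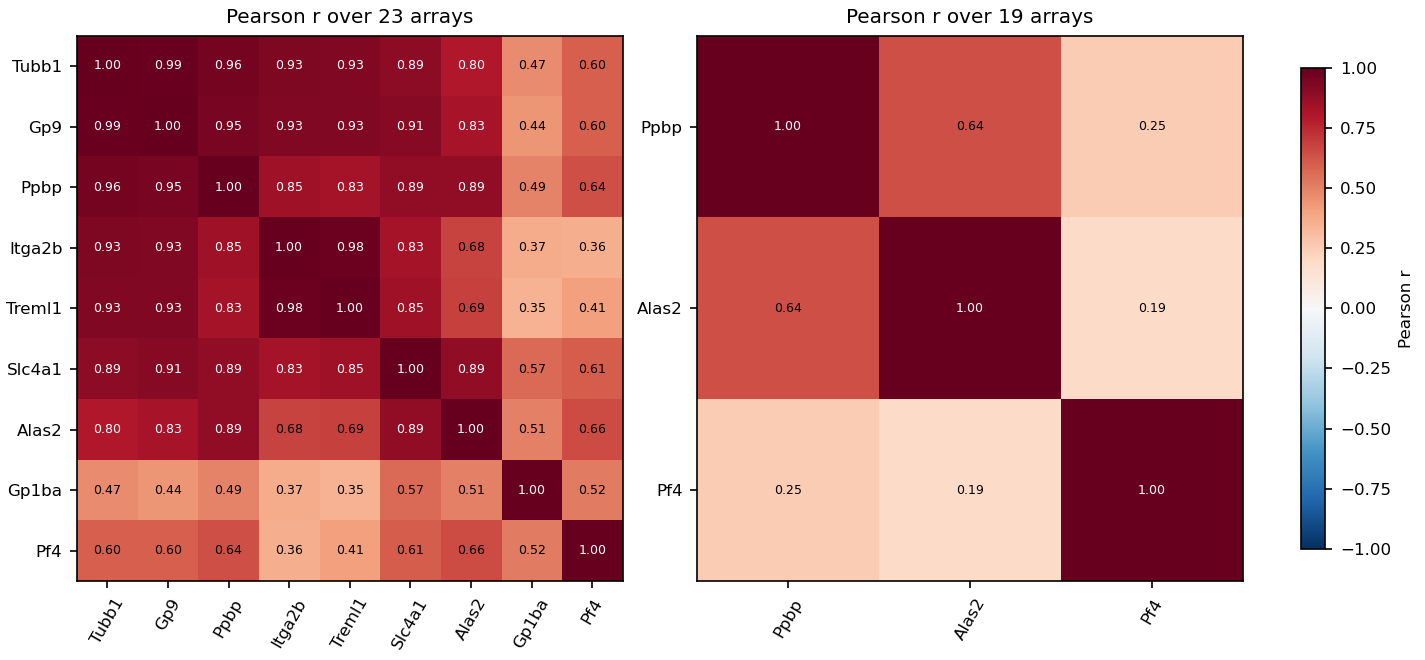
Pearson's r between each pair of the 9 genes over all 23 arrays (left), and between the 3 genes above background on any of the 19 arrays that remain without arrays 3 and 4 of CIH 8W and 3 and 5 of Nor 12W (right). Over the 19 arrays Ppbp and Alas2 have r = 0.64, and Ppbp and Pf4 have 0.25.

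The genes most like each member were sought among 13243 genes with 1 symbol and a mean above 5.003, as a description. For Alas2 the highest r over the 23 arrays was with Slc25a37 (0.97), the mitoferrin that carries iron into mitochondria, then Ube2l6 (0.94), Isg20 (0.94), Rsad2 (0.94), Tent5c (0.93), Car2 (0.93), Hba-ps4 (0.93), Mkrn1 (0.91), Fech (0.90) and Mkrn1-ps1 (0.89). Fech inserts iron in the step that forms haem. Car2 is the carbonic anhydrase of red cells among other cells, and Isg20 and Rsad2 are also known as interferon-induced genes. Over the 19 arrays without the 4 bright ones r with Alas2 was 0.97 for Hba-ps4, 0.81 for Slc25a37 and 0.22 for Fech, and the other 7 lay between 0.44 and 0.77. Slc25a37, Car2 and Fech had been listed by name as red cell or haem genes.

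For Pf4 the list was a different one. The highest r was with Gm23513 (0.86), Hpgd (0.85), Rfk (0.85), Cmah (0.85), Tmem100 (0.84), Pigx (0.84), Dpt (0.84), Cd55b (0.82), Ms4a4d (0.82) and Add3 (0.82). Over the 19 arrays r with Pf4 ran from 0.30 for Ms4a4d to 0.83 for Rfk. None of these 10 genes is in the platelet or red cell lists, and none is among the 10 most like Alas2. Of the platelet list, the genes with the highest r with Pf4 were Rgs18 (0.77), F13a1 (0.76), Gng11 (0.73) and P2ry12 (0.73), and macrophages also express F13a1. With Alas2 the r of these genes was 0.80, 0.55, 0.74 and 0.80. For the 9 measured macrophage genes r with Pf4 ran from 0.17 (Gpnmb) to 0.52 (Mrc1). The source of the Pf4 signal was not tested.

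For Gp9, which was added after its values were seen, the highest r was with Alox12 (0.94), the 12-lipoxygenase of platelets. Over the 19 arrays without the 4 bright ones, on which Gp9 was at background, this r was 0.43. Of 32 other platelet genes, array 5 of Nor 12W had 11 above their highest value on the 19 arrays without the 4 bright ones. It had 1 (Clu) under the lowest, 27 above the median and 5 below it. Array 3 of CIH 8W had 14 above the highest and 3 under the lowest. Array 3 of Nor 12W had 12 above and 2 under. Array 4 of CIH 8W had 0 above and 1 under, with 17 above the median and 15 below it. These counts were not made over all probe sets. On array 5 of Nor 12W Alox12 had 8.42, Gp6, the collagen receptor of platelets, 6.32, F2rl2, a thrombin receptor, 6.78, and Nrgn 5.23. On the 19 other arrays their highest values were 5.09, 3.74, 4.97 and 4.41. Gp5, the third part of the von Willebrand factor receptor, had 5.01 there and was not above background.

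The 4 bright arrays also differed in other cell types. Array 3 of CIH 8W had the highest mean over the macrophage genes (14.08, against 9.62 to 13.75 on the 19 other arrays) and over the T and NK cell genes (6.67, against 4.21 to 5.92). Array 5 of Nor 12W had the highest mean over the adipocyte genes (11.85, against 8.15 to 10.80). Array 4 of CIH 8W had 11.91 and 4.81 in the macrophage and the T and NK cell genes, within those ranges, and 10.83 in the adipocyte genes. The mean of the smooth muscle genes was 14.70 on array 3 of CIH 8W and 15.005 on array 3 of Nor 12W, under the lowest of the 19 others (15.42), and 15.77 on array 4 of CIH 8W and 15.55 on array 5 of Nor 12W, within their range. On array 3 of Nor 12W the mean of the sympathetic neuron genes was 10.24, within the 4.55 to 12.43 of the 19 others. The part of these cell types in the results was not tested.

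The neutrophil genes S100a8 and S100a9, which mark another blood cell, were highest on part of the bright arrays. S100a8 had 7.83 and 5.50 on arrays 3 and 4 of CIH 8W and 8.94 and 6.71 on arrays 3 and 5 of Nor 12W, and at most 6.36 on the 19 others. The mean of 10 neutrophil genes was 6.68 and 5.26 on arrays 3 and 4 of CIH 8W and 6.54 and 5.46 on arrays 3 and 5 of Nor 12W, against 4.08 to 5.95 on the 19 others, so array 3 of each group lay above that range and the other two within it. Of 11 genes of marrow precursors, among them Mpo and Elane, 11 were at background on every array. Of 11 regulators that are active in the precursors of platelets and red cells, 4 were at background on all 23 arrays too, namely Gata1, Klf1, Nfe2 and Gfi1b. Fli1, Lmo2, Ldb1 and Mef2c were above background on all 23 arrays, Runx1 on 17, Zfpm1 on 11 and Tal1 on 4.

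The first comparison asks how aortas differed after 8 weeks of hypoxia. In CIH 8W vs. Nor 8W, 0 of the 9 genes were called, at an unadjusted p under 0.05 in limma and a fold change over 1.1, where 6.45% of all probe sets were called in either direction. Ppbp averaged 6.98 ± 1.82 in CIH 8W and 5.19 ± 1.06 in Nor 8W (SD, n = 5 each), a difference of 1.79 ± 1.32 (SE, limma adjusted p = 0.80, exact permutation p = 0.103). Alas2 averaged 9.82 ± 3.17 in CIH 8W and 8.30 ± 1.16 in Nor 8W, a difference of 1.52 ± 1.40 (limma adjusted p = 0.83, exact permutation p = 0.373). The differences were 0.41 for Tubb1 and 0.31 for Gp9. Without the 4 bright arrays that of Alas2 was -0.59 and that of Ppbp 0.51. Permutation tests were two-sided over the arrays of the pair of groups, and the smallest p they can give with 5 arrays in a group is 0.00794.

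In CIH 12W vs. Nor 12W, which asks the same at 12 weeks, 5 of the 9 were called and all 5 were lower in CIH 12W, where 6.99% of all probe sets were called lower. Ppbp averaged 5.87 ± 1.05 in CIH 12W (SD, n = 4) and 9.15 ± 4.09 in Nor 12W (SD, n = 5), a difference of -3.28 ± 1.40 (SE, limma adjusted p = 0.35, exact permutation p = 0.222). Tubb1 averaged 4.17 ± 0.38 in CIH 12W and 6.08 ± 2.55 in Nor 12W (limma adjusted p = 0.33, exact permutation p = 0.230). Since it was at background in CIH 12W it was at least 2.23-fold lower there, with 2 of the 5 arrays of Nor 12W above background. Gp9 averaged 4.13 ± 0.36 in CIH 12W and 5.71 ± 2.39 in Nor 12W (limma adjusted p = 0.42, exact permutation p = 0.310). It was at least 1.73-fold lower in CIH 12W, again with 2 arrays of Nor 12W above background. These bounds take the dim group at the background limit of its arrays.

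Itga2b and Gp1ba were the other 2 called (limma adjusted p = 0.41 and 0.14), and both were at background on every array. Alas2 averaged 8.30 ± 1.58 in CIH 12W and 10.43 ± 3.40 in Nor 12W, a difference of -2.13 ± 1.49 that was not called (limma adjusted p = 0.61, exact permutation p = 0.317). Pf4 differed by -0.60 ± 0.41 (limma adjusted p = 0.61). Adjusted p-values were over all 65956 probe sets, and none of the 9 genes had one under 0.05 in any of the 7 comparisons.

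The calls of Ppbp, Tubb1 and Gp9 were lost without arrays 3 and 5 of Nor 12W. Without both arrays Gp1ba was the 1 gene called, and the differences were -0.42 for Ppbp, -0.18 for Tubb1, 0.017 for Gp9 and 0.23 for Alas2. Leaving out either of these arrays alone also left only Gp1ba called, as did leaving out array 4 of CIH 12W alone. Without array 3 of CIH 12W Gp1ba and Tubb1 were called, and without its array 1 or 2 Gp1ba, Ppbp and Tubb1. Arrays 3 and 5 were the highest of Nor 12W in Ppbp, Tubb1, Gp9 and Alas2, so leaving them out lowers the mean of that group.

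**Figure D5:**
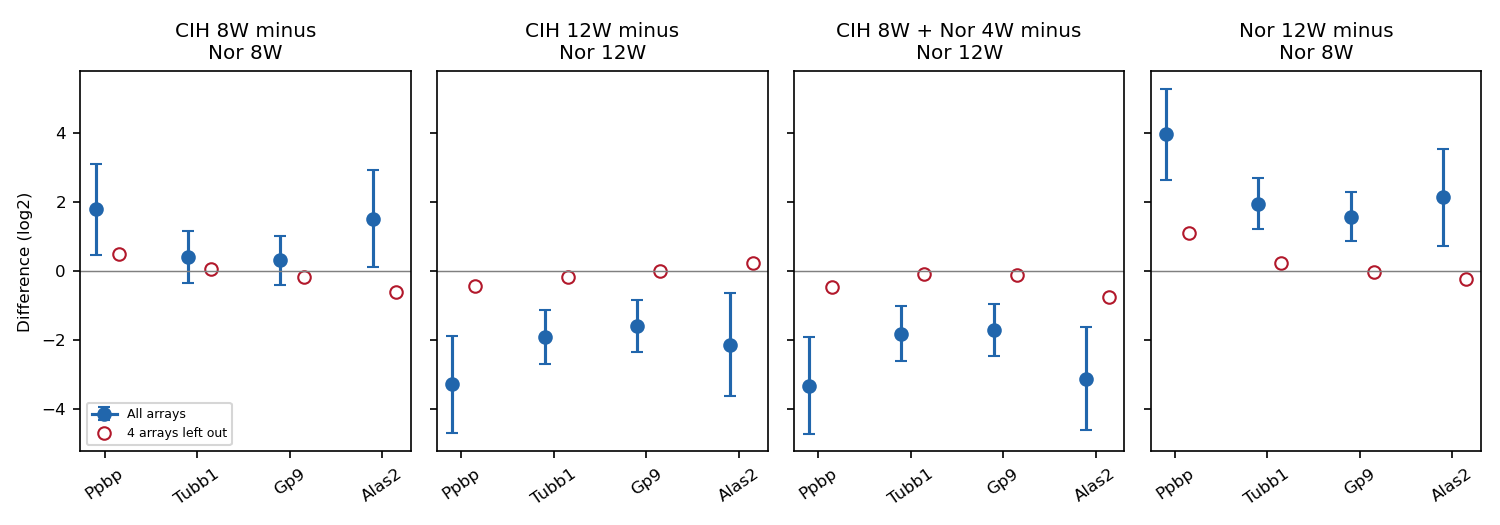
Difference of the group means (log2) for Ppbp, Tubb1, Gp9 and Alas2 in 4 comparisons. Filled points are the fit of all arrays with its SE, and open points leave out arrays 3 and 4 of CIH 8W and 3 and 5 of Nor 12W. Without these arrays the differences of Ppbp lie between -0.46 and 1.11, against -3.32 to 3.96 with all arrays.

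The 4 weeks of normoxia that followed hypoxia were examined against both 12-week groups. When CIH 12W was set against CIH 8W + Nor 4W, 1 of the 9 was called, the dim Gp1ba, where 3.9% of all probe sets were called lower. Ppbp averaged 5.87 ± 1.05 in CIH 12W, against 5.83 ± 0.43 in CIH 8W + Nor 4W (SD, n = 4 each). Alas2 averaged 8.30 ± 1.58 in CIH 12W, against 7.32 ± 0.27 in CIH 8W + Nor 4W (limma adjusted p = 0.96, exact permutation p = 0.286).

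In CIH 8W + Nor 4W vs. Nor 12W, 4 of the 9 were called lower, where 5.23% of all probe sets were. Ppbp differed by -3.32 ± 1.40 (SE, limma adjusted p = 0.43, exact permutation p = 0.198) and Alas2 by -3.11 ± 1.49 (limma adjusted p = 0.51, exact permutation p = 0.127). Tubb1 was at least 2.25-fold lower in CIH 8W + Nor 4W (limma adjusted p = 0.44) and Gp9 at least 1.74-fold lower (limma adjusted p = 0.45). Pf4 differed by -0.82 ± 0.41 and was not called (limma adjusted p = 0.54). Without arrays 3 and 5 of Nor 12W the count of called genes was 0 of 9 in limma at an unadjusted p under 0.05, with differences of -0.46 for Ppbp, -0.75 for Alas2, -0.09 for Tubb1 and -0.11 for Gp9. The comparisons at 12 weeks share the arrays of Nor 12W or CIH 12W.

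The normoxia groups were compared to see how far the controls differed. In Nor 12W vs. Nor 8W, 3 of the 9 were called higher, where 4.21% of all probe sets were. Ppbp averaged 9.15 ± 4.09 in Nor 12W and 5.19 ± 1.06 in Nor 8W (SD, n = 5 each), a difference of 3.96 ± 1.32 (SE, limma adjusted p = 0.41, exact permutation p = 0.0476). Tubb1 was at least 1.96-fold higher in Nor 12W (limma adjusted p = 0.51, exact permutation p = 0.0794) and Gp9 at least 1.52-fold higher (limma adjusted p = 0.59, exact permutation p = 0.254). Alas2 differed by 2.13 ± 1.40 and was not called (limma adjusted p = 0.79). Without arrays 3 and 5 of Nor 12W the differences were 1.11 for Ppbp, 0.23 for Tubb1, -0.016 for Gp9 and -0.23 for Alas2, and 0 of the 9 were called in limma. For Ppbp the difference between these controls was larger than that between CIH and normoxia at either time.

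Between CIH 12W and CIH 8W, 0 of the 9 were called in limma, where 12.4% of all probe sets were called in either direction. The effect of CIH at 12 weeks minus its effect at 8 weeks was called lower in 3 of the 9, where 6.16% of all probe sets were. It was -5.07 ± 1.93 for Ppbp (SE, limma adjusted p = 0.36) and -2.32 ± 1.09 for Tubb1 (limma adjusted p = 0.47), and the other one was the dim Gp1ba. Without arrays 3 and 5 of Nor 12W it was -2.21 for Ppbp and -0.59 for Tubb1, and none of the 9 was called. Without all 4 bright arrays it was -0.93 for Ppbp and -0.25 for Tubb1.

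The groups overlapped for 9 of 9 genes in each of the 6 pairwise comparisons. Among all probe sets the share whose groups did not overlap was 0.631% for CIH 8W set against Nor 8W. It was 5.19% for CIH 12W set against Nor 12W, 5.1% for CIH 12W set against CIH 8W + Nor 4W, 4.45% for CIH 8W + Nor 4W set against Nor 12W, 1.54% for Nor 12W set against Nor 8W and 3.96% for CIH 12W set against CIH 8W.

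Other genes of both cell types were counted from lists made by name. In CIH 12W vs. Nor 12W, 11.3% of all probe sets were called in either direction and 6.99% lower. Among 15 measured platelet surface genes Gp6 and F2rl2 fell there and Itgb3 rose (1.28). The median over the list was -0.12 and that over all probe sets -0.03. Gp6 was above background on 1 array and F2rl2 on 5, so no size is given for them. Itgb3, the partner of Itga2b, was above background on all 23 arrays, and smooth muscle and endothelial cells also express it. Of 17 genes of granules, enzymes and cytoskeleton Alox12, Nrgn and Gng11 (-0.48) fell, and the brightest of the list, Clu, Thbs1 and F13a1, were not called. Of 18 measured red cell genes and 4 globin probe sets none was called in limma at an unadjusted p under 0.05. Since 15 of these 18 genes were at background on every array, a change in them could hardly be seen. Of 11 haem and iron genes Fech (-0.82), Tfrc, the transferrin receptor (-0.97), Urod (-0.18) and Uros, which was at background, fell and Slc25a38 rose (0.19). The values are limma log2 differences, CIH 12W minus Nor 12W. Without arrays 3 and 5 of Nor 12W, Itgb3 of the surface genes and Uros, Urod and Tfrc of the haem and iron genes were still called, and none of the granule, enzyme and cytoskeleton genes. In the same comparison 8 of 10 adipocyte genes fell (4 without those arrays), and their part in these counts was not tested.

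In CIH 8W + Nor 4W vs. Nor 12W the calls in these lists were all lower, where 5.23% of all probe sets were called lower. Car2 (-1.87) and Car1, which was at background on every array, fell of the 18 red cell genes, 1 of the 4 globin probe sets, of beta-globin, fell (-2.02), and Fech (-0.72), Alad (-0.17) and the dim Uros fell of the 11 haem and iron genes. Of the platelet surface genes Gp5, Gp6, F2rl2 and Itga2 (-0.83) fell, and of the granule, enzyme and cytoskeleton genes Nrgn and Gng11 (-0.42). The median over the globin probe sets was -1.35 and that over all probe sets -0.0015, as limma log2 differences. With arrays 3 and 5 of Nor 12W left out the calls were Car1 and Uros, and none of the platelet genes or globin probe sets. Nor 12W vs. Nor 8W gave Gp6, F5 (1.503), Thbs1 (1.099), Nrgn, Gng11 (0.38) and Plek (1.41) as platelet genes that rose, and Itgb3 (-0.78) as 1 that fell. In that comparison 4.21% of all probe sets were called higher and 7.33% in either direction. Alas1, the haem synthesis enzyme of other cells (0.64), Tfrc (1.12), Alad (0.20) and Uros rose there as well, Slc25a38 (-0.18) fell, and of the red cell genes Gypc (0.21) rose. With the same arrays left out Alas1, Tfrc, Uros and Gypc were still called, and none of the platelet genes.

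In CIH 8W vs. Nor 8W of the 17 genes of the granule, enzyme and cytoskeleton list 9 rose and 1 fell, where 3.99% of all probe sets were called higher and 2.47% lower. The list's median was 0.47, against -0.0032 over all probe sets. Those that rose were F5 (1.29), Thbs1 (1.19), Srgn (0.47), Tbxas1 (0.91), Fermt3 (1.05), Rgs18 (0.95), Bin2 (1.17), Plek (1.77) and Stxbp2 (0.52), and Rasgrp2 (-0.18) fell. Leucocytes express Plek, Fermt3, Tbxas1, Bin2 and Srgn as well, and 7 of 9 macrophage genes rose in the same comparison, among them Cd68 (1.802) and Msr1 (2.22). The part of macrophages in the counts of this list was not tested. Without the 4 bright arrays 5 of the 17 rose, namely F5, Clu, Fermt3, Rgs18 and Stxbp2, and 2 of the 9 macrophage genes. Of the surface genes Itga2 (0.65) and Trpc6, above background on 1 array, rose. None of the 18 red cell genes and 4 globin probe sets was called in limma, and 15 of the 18 were at background on every array. Of the 11 haem and iron genes Urod (-0.17), Ppox (-0.23) and Slc25a38 (-0.25) fell, of which Urod and Slc25a38 were also called without the 4 bright arrays, as were Itga2 and Trpc6.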

How the data were processed

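Total RNA of 23 aortas was measured on Clariom D mouse arrays. The authors deposited 1 table of normalized log2 values. Per the methods this was done in Transcriptome Analysis Console, per the submitters' processing notes in Affymetrix Expression Console, and how probes were summarised is not given in the sources used here. Of 72688 rows, 6732 controls were left out, which left 65956 gene-level probe sets. Gene names came from the platform annotation (30638 probe sets with 1 symbol, 2176 with several, 33142 with none), except that of Gp1ba, which was paired through a supplementary table of the study.

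One limma model (version 3.58.1, R 4.3.3) with the 5 groups was fitted to all gene-level probe sets. Genes were called past the study's thresholds (fold change over 1.1, unadjusted p under 0.05), and Benjamini-Hochberg adjusted p-values stand beside it. Correlations and exact permutation tests used Python 3.11.15, numpy 2.4.6 and scipy 1.17.1. The limma fit was tested on simulated data. Named were the 9 genes, listed genes that were called or bright, and the 10 genes most like Pf4 and Alas2. The members and lists were chosen with earlier results of these data known. The p-values measure only the spread between these arrays, whose number limits the precision.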

Additional observations from a re-analysis of the deposited data

Results flagged for a closer look

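The effect of CIH at 12 weeks was set against that at 8 weeks by the test of the difference itself, and Ppbp and Tubb1 were called with all arrays. For Ppbp the effect at 12 weeks minus that at 8 weeks was -5.07 on the log2 scale (limma adjusted p = 0.36), without arrays 3 and 5 of Nor 12W it was -2.21, and without all 4 bright arrays -0.93. For Tubb1 it was -2.32 (limma adjusted p = 0.47), -0.59 without arrays 3 and 5 of Nor 12W and -0.25 without all 4. The calls were at an unadjusted p under 0.05, neither was called without those arrays, and neither passed the adjusted threshold. Dixon's test of the highest and lowest array found 0 outliers in 25 sets of values, where chance gives about 1 in 20. The 2 high arrays of Nor 12W lie on the same side of their group. Such a pair can hide each other in this test, so it cannot decide whether they are outliers.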

How the results depend on the processing

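The counts of called genes (5 in CIH 12W vs. Nor 12W, 1 for CIH 12W against CIH 8W + Nor 4W, 4 for CIH 8W + Nor 4W against Nor 12W, 3 in Nor 12W vs. Nor 8W and 3 for the difference of the effects) depended on the processing. By adjusted p all were 0. In CIH 12W vs. Nor 12W the count was 1 with the 2 groups alone, with array weights, by the exact permutation test, with only probe sets above background on at least 4 arrays, and without arrays 3 and 5 of Nor 12W or the 4 bright arrays, and 3 at a fold change over 1.5, with median centring, with quantile normalization and with globin as a covariate. For CIH 12W against CIH 8W + Nor 4W it was 0 with the 2 groups alone, by the permutation test, without dim probe sets, at the higher fold and with either scaling. In CIH 8W + Nor 4W vs. Nor 12W it was 0 with the 2 groups alone, array weights, the permutation test, globin as a covariate and without the bright arrays, and 2 without dim probe sets. In Nor 12W vs. Nor 8W and for the difference of the effects it was 0 without the bright arrays and 1 without dim probe sets, a setting that kept only Ppbp, Pf4 and Alas2 of the 9 genes. The cause was not tested. The share of all probe sets called under each of these settings, or with 1 array left out, is not given here. The counts therefore do not show whether the 9 genes moved more than other genes.

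Leaving out 1 array at a time gave 1 to 8 genes in CIH 12W vs. Nor 12W (1 without array 3 or 5 of Nor 12W or array 4 of CIH 12W, 2 without array 3 of CIH 12W, 3 without its array 1 or 2, 8 without array 1 or 4 of Nor 12W). It gave 0 to 1 for CIH 12W against CIH 8W + Nor 4W, 0 to 7 for CIH 8W + Nor 4W against Nor 12W (0 without array 3 or 5 of Nor 12W or array 4 of CIH 8W + Nor 4W, 7 without array 1 or 4 of Nor 12W), 2 to 7 in Nor 12W vs. Nor 8W (7 without array 1 or 4 of Nor 12W, 5 without its array 2), 0 to 1 for CIH 12W against CIH 8W and 1 to 8 for the difference of the effects (8 without array 1 of Nor 12W, 1 without array 1 of CIH 12W).

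The replicate numbers were not taken as pairs. Same-numbered arrays correlated between -0.415 and 0.503 in their deviations in Nor 12W vs. Nor 8W. The lowest value was negative in every comparison. It was only -0.003 for CIH 12W against CIH 8W + Nor 4W and -0.005 for CIH 8W + Nor 4W against Nor 12W. Whether the numbers pair the arrays was not tested. With the replicate number as a block the count was 1 gene for CIH 12W against Nor 12W and 0 for CIH 8W + Nor 4W against Nor 12W, and no other count moved past 1.5 times.

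Of 453 alternative values of the 20 log2 differences printed, 10 reversed. Without the 4 bright arrays Gp9 was -0.17 and Alas2 -0.59 in CIH 8W vs. Nor 8W. Without these or arrays 3 and 5 of Nor 12W alone, Gp9 was 0.017 and Alas2 0.23 in CIH 12W vs. Nor 12W, and Gp9 -0.016 and Alas2 -0.23 in Nor 12W vs. Nor 8W. The correlation of Ppbp with Pf4 was 0.38 without the 2 farthest arrays (permutation p = 0.0941) and 0.25 without the 4 bright arrays (permutation p = 0.296). Both sets of left-out arrays and the globin covariate were chosen after seeing the data. Signal over background limits Tubb1, Gp9 and Slc4a1 to 3 arrays at most.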
